A study of Mus musculus with 12 samples.

Results

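The response to estrogen was followed in mouse endometrial epithelial organoids that lack Esr1, through 6 of the series' 12 bulk RNA-seq libraries. They were chosen by label: 3 libraries of Esr1 knockout (KO) organoids with estrogen and 3 without, each set numbered 1 to 3. The other 6 libraries are wild-type (WT) organoids, 3 with estrogen and 3 without, and serve here as the setting for the KO values. Endometrial epithelial organoids are cultures grown in a gel from the epithelial sheets that line the uterus. Both genotypes were prepared by trypsin digestion of mouse uteri, embedded in Cultrex and used at passage 3. The estrogen used, its dose and duration, the Esr1 allele and any Cre driver, the age of the mice behind these libraries, and whether the libraries of a group came from separate mice or wells are not given in the sources used here. The p-values below therefore measure the spread between these libraries, which may be technical. The submitters' own treatment note says of both genotypes that estrogen gave no response.

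Estrogen acts on the uterine lining mainly through estrogen receptor alpha, the product of Esr1, a nuclear receptor that binds DNA at estrogen response elements and switches on genes such as Pgr and Greb1. In the intact uterus it drives luminal cells to proliferate and to secrete, in part through signals from the stroma, which organoids do not contain. Estrogen can also reach cells through Esr2 and the membrane receptor Gper1. An Esr1 KO culture is thus the control that lacks the receptor of the classical response.

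Totals per library were 75654191 to 83287657 counted reads in KO organoids without estrogen, 102017613 to 108665407 with estrogen and 84336449 to 106297315 in WT. In KO the ranges do not overlap, so depth and treatment cannot be told apart as groups. Levels below are in CPM (reads of a gene per 1e+06 counted reads, scaled by TMM), always in the order of libraries 1, 2 and 3, and are not corrected for gene length. Esr1 itself was counted at 16.5, 15.9 and 16.7 CPM in KO organoids without estrogen, which is 5.32% of the mean of the matching WT group (307.7 ± 50.2 CPM, SD, n = 3). With estrogen it stood at 19.3, 20.3 and 19.5 CPM, or 6.19% of WT. All 6 KO libraries thus lie below all 6 WT libraries. Counts per gene do not show from which exons the remaining reads come. The 3 estrogen values lie above the 3 others, a log2 fold change of 0.27 (SE 0.11, unadjusted p = 0.0385, edgeR adjusted p = 1).

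The first comparison asked which genes differ between KO organoids with and without estrogen. Without regard to library numbers, and with the 12 libraries in 4 groups that share an estimate of the spread, none of 16465 tested genes passed an adjusted p of 0.05 (0% called, edgeR quasi-likelihood test, two-sided, Benjamini-Hochberg). An unadjusted p under 0.05 was reached by 411 genes, 248 higher with estrogen (1.51%) and 163 lower (0.99%). The lowest adjusted p, 0.187, belonged to Bcat1, the cytosolic enzyme that starts the breakdown of branched-chain amino acids. Bcat1 was counted at 4.54, 6.31 and 8.64 CPM without estrogen and at 19.95, 18.8 and 16.05 CPM with it. The groups do not overlap, and the means differ 2.81-fold (log2 fold change 1.49, SE 0.20, 95% interval 1.06 to 1.92), but Bcat1 did not pass with the library numbers as a block either (edgeR adjusted p = 0.231 in the 6 KO libraries). DESeq2, run on the same 4 groups, called 20 genes, 19 higher and 1 lower, and Bcat1 led them (DESeq2 adjusted p = 2.76e-09). For 75.7% of tested genes the 95% interval of the change lay within 2-fold in either direction.

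**Figure D1:**
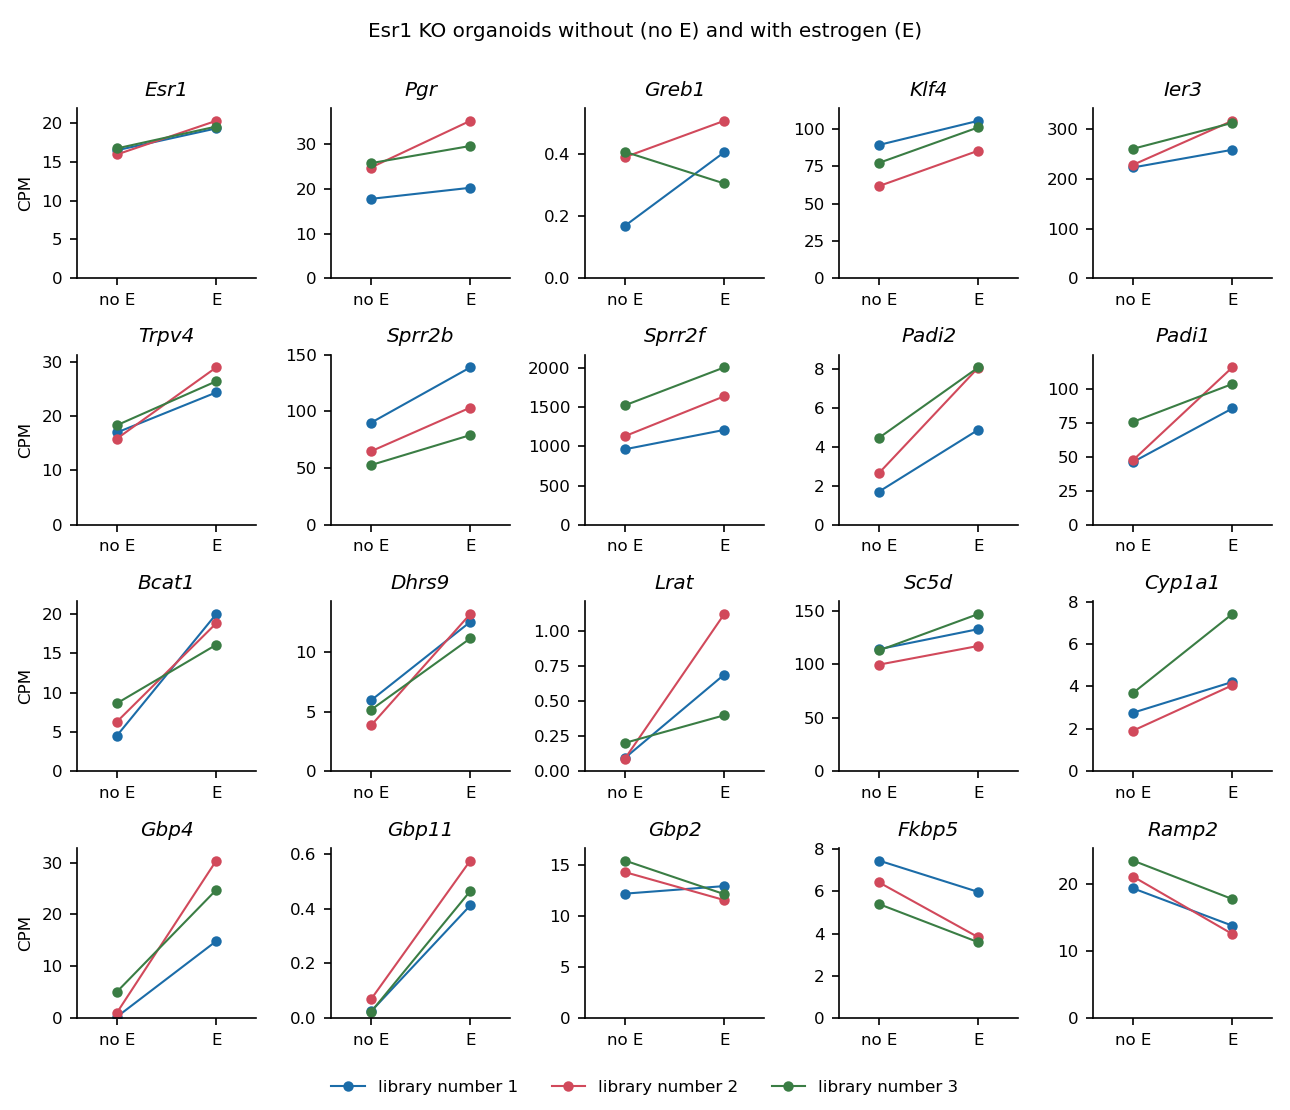
Levels of 20 genes in the 6 KO libraries, in CPM on linear axes that start at 0, with libraries of the same number joined by a line. Sprr2b and Sprr2f rise in every pair from unequal starting levels, Gbp4 is at 0.24 to 5.08 CPM without estrogen and at 14.8 to 30.4 CPM with it, and Greb1 and Gbp2 have lines in both directions.

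Across the tested genes, the deviations of libraries from their group means correlated between treated and untreated KO libraries of the same number by 0.57, 0.50 and 0.41 (Pearson, over genes, which are not independent). Pairs of unlike number gave -0.48 to 0.005. In WT the same-number correlations were -0.16, -0.16 and -0.39. Pairs of unlike number in WT gave -0.28 to 0.46, so values near those of KO same-number pairs also occurred there. The labels do not say what a number stands for. A block for number within genotype over the 12 libraries still called none of the 16465 genes (0%), with 668 at an unadjusted p under 0.05 and 52 called by DESeq2.

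**Figure D2:**
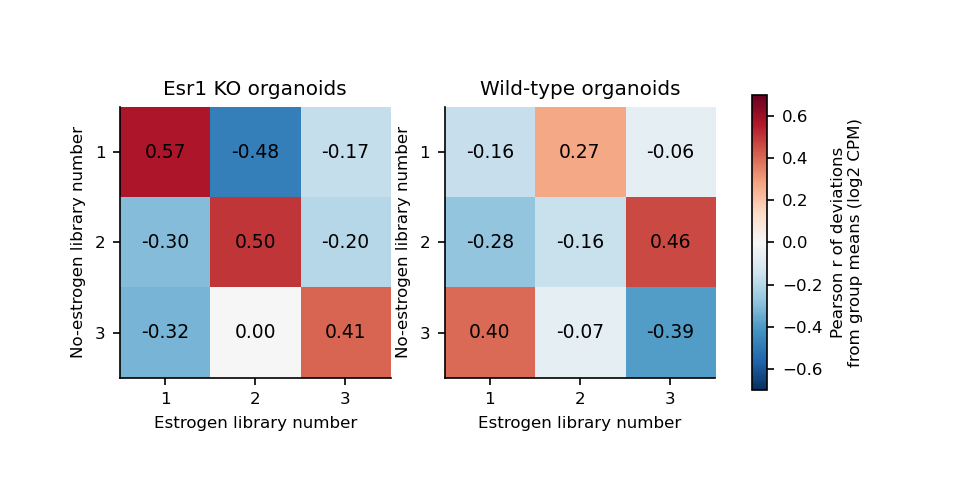
Pearson correlation, over 16465 genes, of each library's deviation from its group mean (log2 CPM), for every untreated (rows) and treated (columns) library of KO (left) and WT (right). In KO the diagonal holds the 3 highest values, 0.57, 0.50 and 0.41, while in WT the diagonal holds -0.16, -0.16 and -0.39. Off the diagonal, the WT values run from -0.28 to 0.46.

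When the 6 KO libraries were fitted alone with number as a block, called the paired KO fit from here on, 486 of 15900 genes passed, 141 higher with estrogen (0.887%) and 345 lower (2.17%). Most changes were small: the median size was 0.34 on the log2 scale and the range 0.20 to 3.64, with 17 genes at least 2-fold higher and 4 at least 2-fold lower. All 486 went the same way in all 3 pairs, as did 16.9% (higher) and 19.6% (lower) of all tested genes. The untreated and treated values stood fully apart for 67 of the 141 and 74 of the 345, against 3.43% and 3.47% of all tested genes. The 486 were called from these same 6 libraries. Like directions and separate groups are favoured by that choice and do not back the calls independently. This fit estimates the spread from 2 residual degrees of freedom, and its calls depended on which pairs were in it. The number called fell most without the number 1 pair: 23 genes, against 271 without number 2 and 194 without number 3. Each of these fits had 1 residual degree of freedom. That the 486 kept their direction each time follows from their like direction in all 3 pairs. Scaled by library size alone, 636 genes passed and 13.5% of them were higher, against 29.0% of the 486. With every library thinned to the smallest total, 470 passed.

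**Figure D3:**
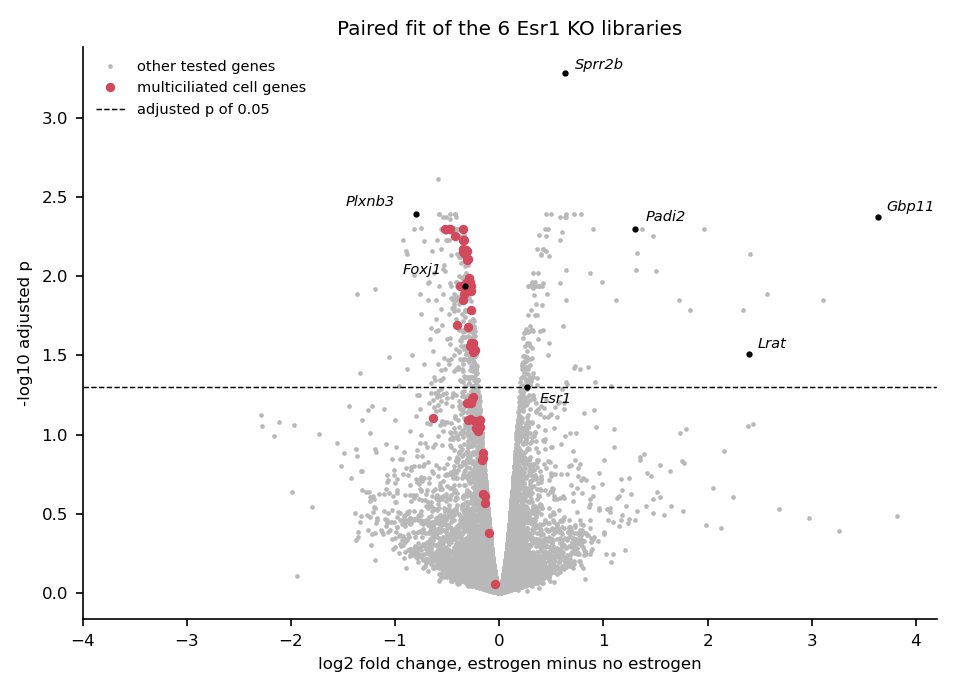
Change with estrogen in the paired KO fit for 15900 genes: log2 fold change on the x axis, -log10 of the adjusted p on the y axis, with a dashed line at 0.05 and multiciliated cell genes in red. The red points lie left of 0 and 33 of 53 lie above the line, while Gbp11, Lrat and Padi2 stand at the right.

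Among the receptors, Esr1 passed in the paired KO fit at the edge of the threshold (log2 fold change 0.26, SE 0.064, edgeR adjusted p = 0.0497) and in none of the fits that left out a pair. Esr2, the beta receptor, was close to the limit of detection, at 0.0685 to 0.144 CPM over the 6 libraries. Gper1, the membrane estrogen receptor, was counted at 1.56, 3.63 and 2.74 CPM without estrogen and at 1.2, 2.32 and 2.13 CPM with it. Gper1 was lower in each pair and the groups overlap (edgeR adjusted p = 0.107 in the paired KO fit). The estrogen-related receptor Esrra differed by 0.05 on the log2 scale, with a 95% interval of -0.13 to 0.23 in the 4-group fit.

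Of 25 early targets of the estrogen receptor, none passed in the fits of the 12 libraries, and 3 of the 24 in the paired KO fit were higher and 0 lower, against 0.887% and 2.17% of all genes there. Those 3 are Klf4, a zinc finger factor of differentiating epithelia, Ier3, an immediate early gene, and Pgr, the progesterone receptor. Klf4 was counted at 89.2, 61.7 and 77.2 CPM without estrogen and at 105, 85.4 and 101 CPM with it. The groups overlap, but each pair moved upward (log2 fold change 0.36, SE 0.055, edgeR adjusted p = 0.00671 in the paired KO fit). Ier3 went from 223, 228 and 261 CPM to 259, 317 and 313 CPM, and Pgr from 17.8, 24.8 and 25.8 CPM to 20.2, 35.2 and 29.6 CPM (edgeR adjusted p = 0.0219 and 0.0469). Pgr had a log2 fold change of 0.30 there, and its 95% interval in the 4-group fit ran from -0.38 to 1.02. Klf4 was also called without number 2 or 3, while Ier3 and Pgr lost the call without any of the pairs.

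Greb1, among the most estrogen-dependent genes of the uterus, was far below its level in WT organoids without estrogen (158.8 ± 55.0 CPM, SD, n = 3). In KO it was counted at 0.168, 0.388 and 0.405 CPM without estrogen and at 0.404, 0.505 and 0.304 CPM with it, with 1 pair downward (unadjusted p = 0.483). Nrip1, a corepressor of nuclear receptors, and Pdzk1, a scaffold protein, did separate: Nrip1 was at 32.6, 31.2 and 33.9 CPM without estrogen and at 37.6, 35.6 and 35.4 CPM with it. The Pdzk1 values were 1.89, 1.93 and 1.85 CPM against 2.51, 2.21 and 2.21 CPM. Neither passed there (edgeR adjusted p = 0.177 and 0.355 in the paired KO fit). Over the 25 genes, 11 were higher in all 3 pairs and 0 lower, where all tested genes gave 16.9% and 19.6%. Groups stood fully apart for 3, all higher (3.43% of all tested genes). The median log2 fold change was 0.10 against -5.05e-05 over all genes tested. Stc2, a secreted glycoprotein, and Xbp1, a factor of the secretory pathway, were among the 11 (log2 fold changes 0.37 and 0.10, unadjusted p = 0.123 and 0.309).

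The list of secretory and luminal genes that estrogen raises in the uterus had 28 tested members, of which 4 were higher and 0 lower in the paired KO fit, against 0.887% and 2.17% of all genes tested there. Sprr2b, a small proline-rich protein of the cornified envelope that the uterine lining makes under estrogen, had the smallest p of all genes there. Its levels were 90.1, 64.9 and 52.7 CPM without estrogen and 139, 103 and 79.2 CPM with it. Every pair rose by a like factor, 1.55-fold between the means (log2 fold change 0.63, SE 0.049, edgeR adjusted p = 5.21e-04), and Sprr2b kept its call without each pair in turn. Sprr2f went from 963, 1131 and 1524 CPM to 1210, 1639 and 2007 CPM, higher in each pair (edgeR adjusted p = 0.011). The other called members were Ctsl, a lysosomal protease, and Padi2. Sprr2 genes are near-identical copies, and reads that map to several places were not counted, so the level of each is uncertain.

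Padi genes encode enzymes that turn arginine into citrulline in proteins, and estrogen raises them in the uterus. Padi2 was counted at 1.71, 2.66 and 4.47 CPM without estrogen and at 4.88, 8.08 and 8.09 CPM with it. The groups do not overlap, and the means differ 2.38-fold (log2 fold change 1.30, SE 0.15, edgeR adjusted p = 0.00504 in the paired KO fit). Padi1 (46.1, 47.5 and 75.6 against 85.4, 116 and 103 CPM) and Padi4 (28.8, 25.4 and 42.2 against 44.5, 56 and 49.4 CPM) also had groups fully apart. Neither passed (edgeR adjusted p = 0.273 and 0.41 there, unadjusted p = 0.00243 and 0.00467 in the 4-group fit). These are low levels for the tissue: WT organoids without estrogen held 1641 ± 304 CPM of Padi2 and 925.4 ± 172 CPM of Padi1 (SD, n = 3). Ltf, the gene with the highest mean CPM in KO and a secreted iron-binding protein raised by estrogen in mouse uterus, was higher in each pair. It stood at 12010, 15900 and 17090 CPM against 13640, 23500 and 20920 CPM (edgeR adjusted p = 0.0967).

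Of 27 other steroid receptors and cofactors, Fkbp5, a co-chaperone that glucocorticoids raise, was the one called lower in the paired KO fit: 7.45, 6.42 and 5.39 CPM against 5.97, 3.82 and 3.59 CPM (log2 fold change -0.55, edgeR adjusted p = 0.0203). Of the 27, 2 were called higher. Of 13 glucocorticoid targets, Fkbp5 alone passed. Of 21 genes of steroid metabolism in the paired KO fit, Hsd17b11, a dehydrogenase of steroids and lipid droplets, was the one called. It went from 52.9, 66.3 and 71 CPM to 72, 98.2 and 84.4 CPM (edgeR adjusted p = 0.00671). Over all genes of that fit 0.887% were called higher and 2.17% lower, so 1 call does not set a list this small apart.

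The aryl hydrocarbon receptor senses planar aromatic compounds and turns on Cyp1a1, a monooxygenase that also acts on estrogens. Cyp1a1 was counted at 2.77, 1.92 and 3.69 CPM without estrogen and at 4.21, 4.06 and 7.42 CPM with it, 1.87-fold between the means (log2 fold change 0.90, SE 0.125, edgeR adjusted p = 0.00504 in the paired KO fit). In WT organoids, where it was at 0.255 ± 0.252 CPM without and 0.515 ± 0.184 CPM with estrogen, the log2 fold change was 0.98 (unadjusted p = 0.124). Of the 9 tested genes of this list, 2 were called higher, against 0.887% of all genes. None was lower in all 3 pairs and 6 were higher in all 3, against 19.6% and 16.9% of all genes. The median log2 fold change of the list was 0.25.

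The other called gene, Lrat, stores retinol as esters and also stands in the retinoic acid list. It was barely present without estrogen, at 0.0962, 0.0914 and 0.203 CPM, and reached 0.688, 1.12 and 0.399 CPM with it (edgeR adjusted p = 0.031). Dhrs9, which oxidises retinol and steroids, was counted at 5.94, 3.84 and 5.15 CPM without estrogen and at 12.5, 13.2 and 11.1 CPM with it. Dhrs9 had groups fully apart and a 2.46-fold difference between the means (log2 fold change 1.31, SE 0.15, edgeR adjusted p = 0.00908). These 2 were the called genes among 19 of the retinoic acid pathway, both higher, against 0.887% of all genes. The median log2 fold change of that list was 0.004 in the paired KO fit. In WT organoids Lrat was at 390.2 ± 102 CPM and Dhrs9 at 52.2 ± 17.9 CPM without estrogen.

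Cholesterol synthesis held 25 tested genes, of which 2 were called higher and 0 lower in the paired KO fit, against 0.887% and 2.17% of all genes. In all 3 pairs 15 were higher and 1 was lower, against 16.9% and 19.6% of all genes. Sc5d, a desaturase of the late steps, rose from 114, 99.6 and 113 CPM to 133, 117 and 147 CPM, with groups fully apart (log2 fold change 0.28, SE 0.053, edgeR adjusted p = 0.0176 in the paired KO fit). Cyp51 was higher in each pair without passing (132 to 193 against 164 to 209 CPM, edgeR adjusted p = 0.0659). Called genes outside cholesterol synthesis included Alpl, the tissue alkaline phosphatase (1.56, 2.65 and 2.83 against 4.82, 7.93 and 4.89 CPM), and Trpv4, a calcium channel (17, 15.8 and 18.3 against 24.3, 28.9 and 26.4 CPM). Both had groups fully apart (edgeR adjusted p = 0.00714 and 0.00424).

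Guanylate-binding proteins, interferon-induced GTPases of cell defence, included Gbp11, the gene with the largest fold change among the 486. The family was singled out after its values were seen. Gbp11 was counted at 0.024, 0.0685 and 0.02252 CPM without estrogen, 10 reads in all, and at 0.413, 0.577 and 0.465 CPM with it, 161 reads in all. In the paired KO fit this was 3.64 on the log2 scale (SE 0.46, edgeR adjusted p = 0.00424). Gbp4 stood at 0.24, 1.05 and 5.08 CPM against 14.8, 30.4 and 24.7 CPM, and Gbp6 at 1.27, 2.21 and 4.46 CPM against 7.99, 12.4 and 10.2 CPM. Both had groups fully apart but unequal pairs, and neither passed (edgeR adjusted p = 0.324 and 0.218). Gbp8 and Gbp10 passed (by 1.97 and 2.41 on the log2 scale, with edgeR adjusted p = 0.00504 and 0.00722), and Gbp9 did not (1.77, adjusted p = 0.304). In the RefSeq table for GRCm38.p6 those 6 lie on chromosome 5, and they are close paralogs whose reads may be split or lost. Of the paralogs on chromosome 3, Gbp2, Gbp3 and Gbp5 had log2 fold changes of -0.19, -0.19 and -0.30, none of which passed. Of 45 interferon-stimulated genes in the list, 0 were called higher and 1 lower, near the 0.887% and 2.17% of all genes. Higher values were found for 37, 22 and 6 of them in pairs 1, 2 and 3.

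Multiciliated cells carry tufts of motile cilia and are made by a cascade in which Mcidas and Gmnc act first, then Myb, Rfx2 and Foxj1, which switch on the parts of the cilium. Of 53 tested genes of these cells, 33 were lower and 0 higher with estrogen in the paired KO fit, where 2.17% of all genes were lower. In the fits of the 12 libraries none passed, and 6 were lower at an unadjusted p under 0.05. Lower values in all 3 pairs were found for 51 of the 53, against 19.6% of all genes, while the groups stood fully apart for 5. The changes were small and alike: the median log2 ratio was -0.23, -0.33 and -0.29 in pairs 1, 2 and 3. Summed over the 53 genes, the levels were 3365, 5170 and 3886 CPM without estrogen and 2880, 4137 and 3196 CPM with it, so the spread between numbers was wider than the change within a pair. Without the pairs of number 1, 2 and 3, 3, 27 and 11 of the genes were called, with medians of -0.29, -0.28 and -0.28. In bulk RNA, fewer cells of a type and less RNA per cell cannot be told apart.

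**Figure D4:**
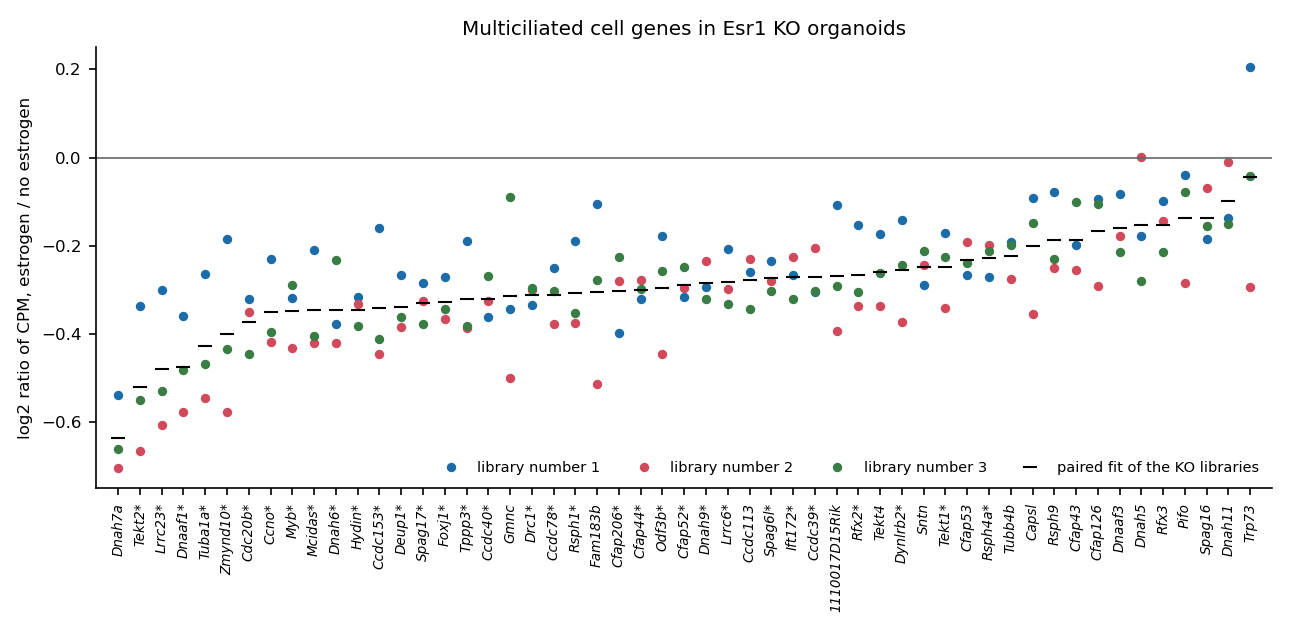
Log2 ratio of CPM, estrogen over no estrogen, for 53 multiciliated cell genes in KO organoids, with a point for each pair of libraries and a bar for the paired KO fit, ordered by the fit. An asterisk marks an adjusted p under 0.05 (33 genes), and all points lie below 0 except Trp73 in pair 1 and Dnah5 in pair 2.

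At the head of the cascade, Mcidas was counted at 26.8, 25.5 and 20.4 CPM without estrogen and at 23.1, 19 and 15.5 CPM with it. Mcidas fell by 0.35 on the log2 scale in the paired KO fit (SE 0.064, edgeR adjusted p = 0.0142). Foxj1, the master factor of motile cilia, went from 337, 496 and 359 CPM to 279.5, 385 and 283 CPM. The Foxj1 groups overlap, and library 2 is high in both (log2 fold change -0.33, SE 0.058, edgeR adjusted p = 0.0115). Its level in the 6 WT libraries was 0 to 0.194 CPM, that is 0 to 16 reads. Myb and Rfx2 were called as well (log2 fold changes -0.35 and -0.27), as was Ccno, which amplifies the centrioles that seed cilia (-0.35). Not every regulator passed: Gmnc was at -0.31 and Rfx3 at -0.15, lower in each pair (edgeR adjusted p = 0.063 and 0.141 in the paired KO fit). Trp73 was at -0.04, with pairs in both directions (edgeR adjusted p = 0.877).

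Among parts of the cilium, Lrrc23, a radial spoke protein, was counted at 88.8, 132 and 101 CPM without estrogen and at 72.1, 87 and 69.7 CPM with it. It is among the 5 with groups fully apart (log2 fold change -0.48, SE 0.061, edgeR adjusted p = 0.00504) and kept its call without each pair in turn. Deup1, of the structure on which new centrioles form, went from 47.6, 51.9 and 42 CPM to 39.5, 39.8 and 32.7 CPM, also fully apart (-0.34, edgeR adjusted p = 0.00587). Tekt2, a filament of the microtubule doublet, went from 17.2, 30 and 20.3 CPM to 13.7, 18.9 and 13.9 CPM (-0.52). Hydin, of the central pair, Dnaaf1, an assembly factor of dynein arms, and Drc1, of the regulatory complex between doublets, had log2 fold changes of -0.34, -0.48 and -0.31. Tuba1a, a tubulin that other cells also make, was at -0.43. Dnah7c, a dynein heavy chain with close paralogs, had the lowest log2 fold change of the cilium genes named here, -0.75 (6.73, 11.5 and 6.73 against 4.49, 6.01 and 4.1 CPM). Dnaic1 and Dnaic2, older symbols of 2 dynein genes that the list held under newer names, were also called, at -0.38 and -0.34.

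Since these genes moved together, the 250 bases before their RefSeq starts (GRCm38.p6) were searched for GTTGCC and its reverse complement GGCAAC, the half-site of the X-box that Rfx factors bind. It stood in 37.5% of the 56 windows of 46 listed genes and in 22.1% of the 340 windows of genes called lower. Of all 32851 windows read, which do not cover every chromosome, 10.4% held it, and of the 154 windows of genes called higher, 10.4%. A match is a description of the letters and not a site in use. The 4 members below had a match within 100 bases of a start that lies in no other gene. Their last 100 bases before the start are shown 5′ to 3′ on the strand of the gene, with the half-site in capitals. Tekt2 is at chr4:126325689-126325788 (minus strand), Ccdc78 at chr17:25786480-25786579 (plus), Dynlrb2 at chr8:116504915-116505014 (plus) and Sntn at chr14:13670776-13670875 (plus).
Tekt2: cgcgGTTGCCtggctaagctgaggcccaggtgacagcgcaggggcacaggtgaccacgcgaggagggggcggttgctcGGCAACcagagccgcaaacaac
Ccdc78: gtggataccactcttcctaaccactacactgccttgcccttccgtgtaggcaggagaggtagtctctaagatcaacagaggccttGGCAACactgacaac
Dynlrb2: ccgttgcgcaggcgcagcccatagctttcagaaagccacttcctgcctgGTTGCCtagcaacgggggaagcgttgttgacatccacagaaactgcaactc
Sntn: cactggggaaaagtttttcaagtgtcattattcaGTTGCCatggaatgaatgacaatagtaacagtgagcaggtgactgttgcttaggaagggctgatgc
The Tekt2 stretch shown holds a half-site on each strand. Tekt2 has 3 RefSeq starts, and the 100 bases before another of them hold no match. Tekt2, Ccdc78 and Dynlrb2 were called lower (log2 fold changes -0.52, -0.31 and -0.25), and Sntn, a protein of the ciliary tip, was not (-0.25, edgeR adjusted p = 0.058).

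The same windows were searched for the half-site of the estrogen response element, GGTCA on either strand. It stood in 39% of the windows of genes called higher, 40.9% of those of genes called lower, 25% of the 24 windows of early targets and 35.2% of all windows. The full element with 3 bases between its parts was in 0 of the windows of called genes and in 21 of all 32851. Distant elements, through which the receptor mostly acts, lie outside these windows.

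Other cell types were checked by their markers. Of 4 endothelial genes in the paired KO fit, Ramp2, which modifies the activity of peptide hormone receptors, was called lower, as were 2.17% of all genes. It went from 19.3, 21.1 and 23.5 CPM to 13.8, 12.5 and 17.7 CPM (edgeR adjusted p = 0.00504). The endothelial sum, over the 5 genes tested in the 12 libraries, was 32.6 to 35.3 CPM without and 23.8 to 29.1 CPM with estrogen. The defining markers Cldn5 and Emcn had 0 reads in all 6 KO libraries. Stromal fibroblast markers summed to 829 to 1120 CPM and 739 to 1090 CPM, nearly all of it Postn (799, 1011 and 1076 against 712.5, 860 and 1051 CPM), and none of the 7 in the paired KO fit was called. Vim was at 5.22 to 7.77 CPM and Lum at 0 reads. Of the tested smooth muscle (7), immune (5) and mesothelial (4) genes of that fit none was called, and C1qa and C1qb had 0 reads. The part of such cells in the results above was not tested.

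Squamous genes, which mark stratified epithelia, differed in direction between the pairs. Of 51 squamous genes, 45, 2 and 33 were higher with estrogen in pairs 1, 2 and 3. Their summed levels were 25890, 17980 and 16760 CPM without estrogen and 29280, 12060 and 17910 CPM with it. The median log2 ratios were 0.16, -0.55 and 0.11. Ivl, a protein of the cornified envelope, was the one squamous gene called (0.35 in the paired KO fit), and Tgm2, a crosslinking enzyme, the one called of 28 basal genes (302, 399 and 441 against 352, 551 and 506 CPM). Both were called higher, as were 0.887% of all genes in that fit. Of 74 ribosomal protein genes, 73, 2 and 69 were higher in the 3 pairs, and none was called. None of 51 cell cycle genes, 14 glandular markers, 50 oxidative phosphorylation genes, 25 p53 targets, 29 WNT genes or 21 Notch genes passed either.

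**Figure D5:**
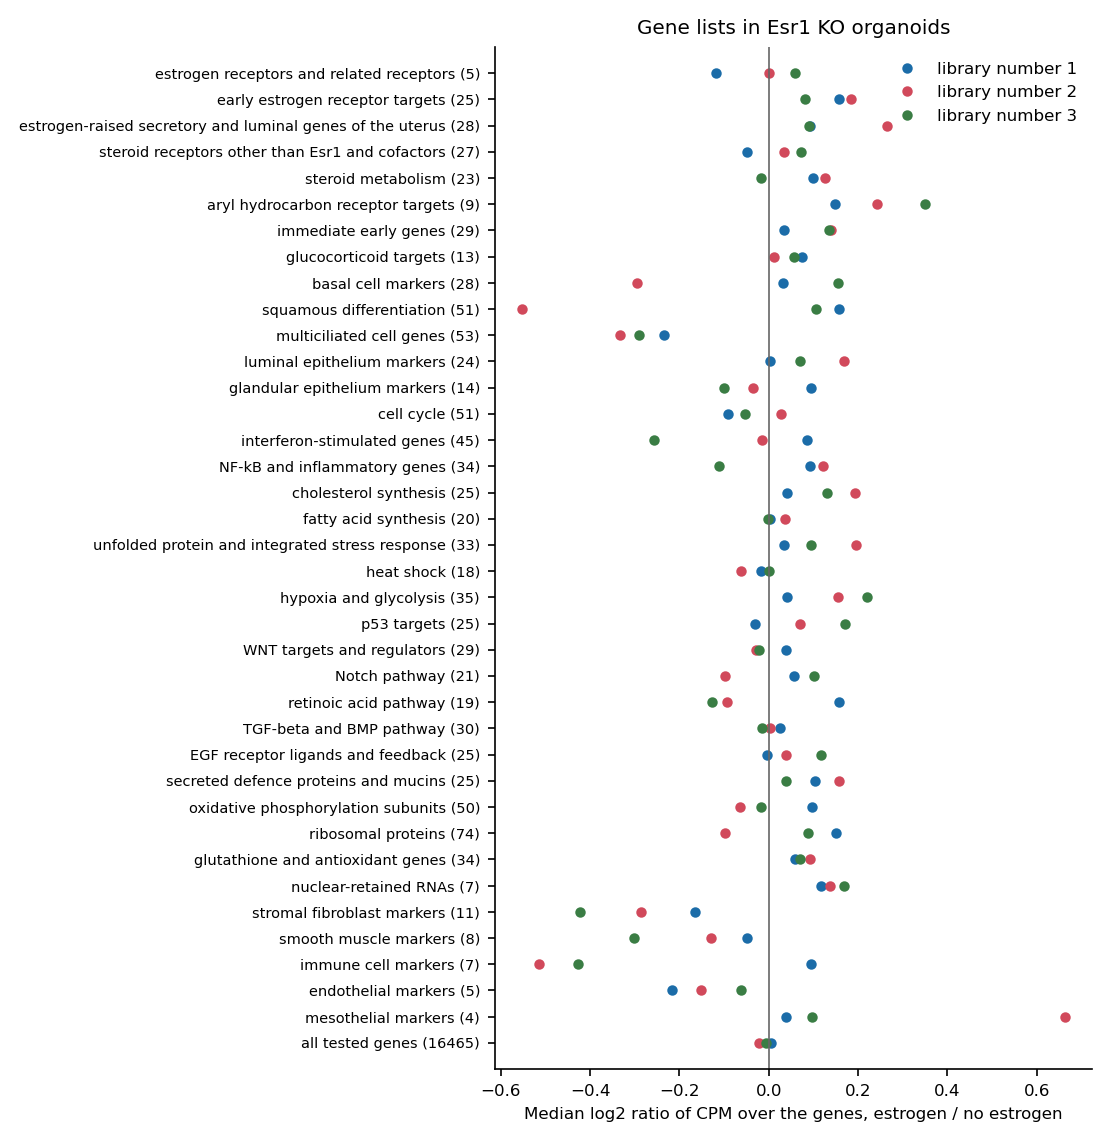
Median log2 ratio of CPM, estrogen over no estrogen, for each gene list (number of tested genes in brackets) and each pair of KO libraries. Multiciliated cell genes are at -0.23, -0.33 and -0.29, early estrogen receptor targets at 0.16, 0.18 and 0.08, and squamous genes at 0.16, -0.55 and 0.11.

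Smaller groups held a few called genes. Of 35 genes of hypoxia and glycolysis, 3 were higher and 0 lower (0.887% and 2.17% of all genes), and 23 were higher in all 3 pairs (16.9% of all genes). They were Ankrd37 (40.6, 37 and 52.9 against 47, 51.1 and 61.7 CPM), the glucose kinase Hk2 and the vessel growth factor Vegfa. Of 25 secreted defence genes, Agr2, a chaperone of mucin-making cells, went from 72.8, 78.5 and 79.3 CPM to 106, 113 and 95.6 CPM, with groups fully apart (log2 fold change 0.44, edgeR adjusted p = 0.00504), and the mucin Muc13 passed too. Malat1, a nuclear RNA, went from 569, 613 and 589 CPM to 654, 815 and 744 CPM (edgeR adjusted p = 0.0284), and Hsp90aa1, a chaperone, from 1290, 1749 and 1533 CPM to 1053, 1373 and 1307 CPM (edgeR adjusted p = 0.0448). Each of these 2 had the same direction in all 3 pairs.

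The second comparison set the KO response beside that of WT organoids. In the 4-group fit no gene passed for estrogen in WT (0%, 883 at an unadjusted p under 0.05, 63 called by DESeq2) and none for the interaction of genotype and estrogen (0%, 726 at an unadjusted p under 0.05, 24 called by DESeq2). With the replicate block, edgeR called 4 genes for the interaction. The interaction values below are from the 4-group fit. Bcat1 came nearest among the genes described (WT log2 fold change 0.09, interaction unadjusted p = 0.000313, adjusted p = 0.871), and WT organoids without estrogen held 1236 ± 116 CPM of it (SD, n = 3). Padi2 had a log2 fold change of 0.23 in WT and 1.25 in KO (interaction unadjusted p = 0.0392, adjusted p = 0.974), and Sprr2b 0.96 in WT, where it was at 0.4 ± 0.103 CPM without estrogen, and 0.63 in KO. Of the 345 genes called lower in the paired KO fit, 188 had a mean under 1 CPM in WT, as had 12 of the 141 called higher and 4428 of all 16465 tested.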

How the data were processed

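RNA was measured by poly(A) RNA-seq (TruSeq, paired-end) in 12 organoid libraries, 3 for each combination of genotype and treatment. The authors deposited raw read counts per gene and library. Per the submitters' processing notes, reads were checked with FastQC 0.11.7, trimmed with Trim Galore 0.6.6 and aligned with STAR 2.7.10b to GRCm39. Per the file headers, featureCounts 2.0.0 (2.0.3 in the notes) counted exon reads per gene without strand, each mate on its own and no multiply mapped reads, so a fragment can count more than once and reads of overlapping, antisense or near-identical genes cannot be told apart.

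Groups and replicate numbers come from the labels. Of 26264 genes, 6133 had 0 reads in all 6 KO libraries. Genes were filtered with filterByExpr (minimum count 10, minimum total 15), scaled by TMM and tested with edgeR 4.0.16 in R 4.3.3 (quasi-likelihood, two-sided, Benjamini-Hochberg at 0.05), over 12 libraries in 4 groups without a block, and with replicate number as a block. The 6 KO libraries alone with the block were an alternative to these. Its results are given beside the 12-library counts because the KO numbers pair by the rule set (all same-number correlations above 0.1: 0.568, 0.501 and 0.409) and the WT numbers do not. Other alternatives used DESeq2 1.42.0, voom of limma 3.58.1, other scaling and filters, equal depth and leaving libraries out. Methods were tested on simulated data. Alternatives of the KO-only fit were added after the data were seen. The members and gene lists were chosen with earlier results of these data known. Genes named are those with the smallest p or largest called changes with a mean of at least 1 CPM, the receptor and early target lists, up to 4 of each other list and the 10 with the highest mean. Others named were picked after their values were seen, among them most Gbp genes and the 4 genes whose promoters are printed. A level of 3 reads over a group corresponds to 0.0116 CPM without and 0.00902 CPM with estrogen, for counting error only. Promoter windows are RefSeq's (GRCm38.p6), a build other than that of the counts, and were joined by gene symbol. Some called genes are not reported here.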

Additional observations from a re-analysis of the deposited data

How the results depend on the processing

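No gene passed for estrogen in KO over the 12 libraries with library size or relative log expression scaling, a 1 CPM filter, no filter or equal depth, with or without the replicate block, nor in the 6 KO libraries without a block. DESeq2 called 20 without and 52 with the replicate block, and edgeR on the KO libraries alone with it called 486. Leaving out 1 library gave 0 to 4 calls without the block (4 without untreated KO library 3) and 0 with it. In WT, the replicate block gave 7 calls, DESeq2 63, and leaving out 1 library 0 to 54 (54 without treated library 1, 1 without untreated library 3). For the interaction the values were 4 with the replicate block, 24 with DESeq2 and 0 to 6 when 1 library was left out (6 without treated WT library 1). In the paired KO fit, alternatives other than leaving out a pair called 413 to 636 genes and 33 to 44 multiciliated cell genes. Leaving out a pair gave 23 to 271 genes and 3 to 27 multiciliated cell genes. Residual degrees of freedom fall from 2 to 1 when a pair is left out. The cause of these differences was not tested. Of the named genes' changes in the 4-group fit, 2 changed sign, both without untreated KO library 2: the Esrra log2 fold change of estrogen in KO ranged from -0.001561 to 0.125 over the left-out libraries, and the Sntn log2 fold change of estrogen in KO from -0.529 to 0.0428. Depth differs with treatment in every KO library.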

Other observations

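Gene families were also counted by symbol, after their values were seen. They overlap the fixed lists: some Cfap, Dnah, Ift and Ccdc genes are among the 33 multiciliated cell genes called lower, and Rpl genes are among the ribosomal proteins. Of all genes in the paired KO fit, 0.887% were called higher and 2.17% lower. Of 33 Cfap genes, which encode proteins of cilia and flagella, 13 were lower, as were 9 of 15 dynein heavy chain genes (Dnah) and 7 of 14 genes of transport within cilia (Ift). Of 117 Ccdc genes, named for a coiled coil, 21 were lower. None of these 4 families had a gene called higher. Of 36 keratin genes (Krt) and 52 genes of the large ribosomal subunit (Rpl), 0 were called in either direction. Of 283 solute carrier genes (Slc), 8 were higher and 3 lower. The share called higher is above that of all genes and the share called lower is below it. The called solute carriers included Slc16a12, a creatine transporter, which was counted at 1.01, 2.09 and 3.37 CPM without estrogen and at 4.29, 6.15 and 6.86 CPM with it. Its groups do not overlap (log2 fold change 1.51, edgeR adjusted p = 0.00921).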
